A study of Mus musculus with 18 samples.

Results

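The serpins examined here were Serpina3n, Serpina3m, Serpina3g, Serpina3f, Serpine2, Serpinf1, Serpinh1, Serpinb6a and Serpini1, 9 of the 63 gene symbols in the retinal count tables that begin with Serpin. The tables listed 23420 symbols in all. These 9 genes were selected on earlier results of the same counts, so their levels and differences between groups are given as a description and support nothing beyond it. All 9 passed the filter on low counts, which asked for at least 0.371 CPM (counts scaled for library size) in 3 mice. Serpina3m passed it through the vehicle mice alone, and therefore had to differ.

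Serpins are a protein family named for serine protease inhibition. An inhibitory serpin exposes a reactive centre loop, the target protease cuts this loop, and the serpin then changes shape and traps the protease. Some members inhibit cysteine proteases, and others, such as the collagen chaperone encoded by Serpinh1, inhibit none. In the retina, members of the family are known as acute phase products of reactive Müller glia and astrocytes (Serpina3n), as neuronal inhibitors of plasminogen activators (Serpini1) and as a trophic factor of the retinal pigment epithelium (Serpinf1).

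Poly(A) RNA of whole retinas was sequenced from 9 wild-type BALB/cJ mice, an albino strain, aged 8 to 10 weeks. The groups, of 3 mice each, were as follows: naïve mice without light or treatment, light-exposed mice that received DMSO as vehicle, and light-exposed mice that received TD139, an inhibitor of galectin-3, at 15 mg/kg in DMSO. Injections were intraperitoneal and daily from 1 day before the light, which was 15000 lux for 1 h, and retinas were taken 4 days later. Vehicle against naïve therefore covers the light together with DMSO, and TD139 against vehicle covers the drug in exposed retinas. In whole tissue, fewer cells of a type and less RNA per cell cannot be told apart.

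The libraries held 26171887 to 30201517 counts on genes, and 3 counts corresponded to 0.0993 to 0.1146 CPM. Reads outside genes made up 16.53 to 19.39% in vehicle, 19.07 to 19.89% in naïve and 21.3 to 22.77% in TD139 mice. Vehicle mouse 2 carried RNA of tissue outside the retina, with 8233 CPM over 5 lens markers against at most 347 CPM in any other mouse. It also had 1319 CPM over 9 skeletal muscle genes and 444 CPM over 10 genes of the ocular surface epithelium, both lists chosen after the data were seen, where the other mice had at most 18.9 and 34.8 CPM. Vehicle mouse 3 had the highest levels of the 4 Serpina3 genes described next, and TD139 mouse 1 was the highest of its group for most of the 9 genes. All 6 rod markers were detected, with sums of 41195 to 81565 CPM, so the libraries carried the labelled tissue.

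Among the 9 genes, Serpina3n, Serpina3m, Serpina3g and Serpina3f, lie in the same orientation in 1 cluster on chromosome 12 that holds 11 Serpina3 symbols in these tables. The human genome has a single SERPINA3 gene in its place, which encodes alpha-1-antichymotrypsin. The mouse copies are known to have diverged in the reactive centre loop, which sets the protease a serpin can trap. To show this, the genomic bases from the conserved hinge of the loop onwards are printed for the 4 genes (GENCODE M21 on GRCm38, plus strand, each within 1 coding exon). The stretches lie at chr12:104413448-104413522 for Serpina3n, chr12:104393769-104393843 for Serpina3m, chr12:104241072-104241146 for Serpina3g and chr12:104220245-104220322 for Serpina3f. Capitals mark bases that are not the aligned base of Serpina3n.
Serpina3n: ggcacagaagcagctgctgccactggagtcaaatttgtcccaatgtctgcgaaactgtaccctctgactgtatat
Serpina3m: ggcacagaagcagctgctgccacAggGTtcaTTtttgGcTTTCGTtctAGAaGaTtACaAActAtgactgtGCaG
Serpina3g: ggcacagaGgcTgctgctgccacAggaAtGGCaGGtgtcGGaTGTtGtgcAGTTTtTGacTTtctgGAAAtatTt
Serpina3f: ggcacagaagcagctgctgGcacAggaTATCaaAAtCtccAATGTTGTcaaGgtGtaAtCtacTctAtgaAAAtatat
In the first 24 bases, which encode the hinge, Serpina3m kept 23, Serpina3g 21 and Serpina3f 22 of the bases of Serpina3n. In the remainder, Serpina3m kept 27 of 51, Serpina3g 25 of 51 and Serpina3f 30 of 54. Elsewhere the copies share longer stretches. Of all windows of 50 bases in the longest transcript (the number of cycles of the flow cells), 6.9% in Serpina3n, 10.7% in Serpina3f, 16% in Serpina3g and 19.1% in Serpina3m occurred identically in another annotated gene. For Serpina3m, 257 of 307 shared windows were shared with Serpina3k, whose annotated span (chr12:104338486-104346144) also overlaps that of Serpina3m (chr12:104338486-104394257). Counts of the low copies, Serpina3m above all, are therefore uncertain. In the genes outside the cluster the share was 0% (Serpinf1 and Serpinh1) to 1.58% (Serpini1).

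Serpina3n (chr12:104406729-104414329) encodes a secreted inhibitor of granzyme B, leukocyte elastase and cathepsin G. Naïve mice 1 to 3 had 10.8, 15.1 and 17.4 CPM. Vehicle mice had 148, 132 and 431 CPM, and TD139 mice 35.9, 8.17 and 6.83 CPM. Every vehicle mouse was far above every mouse of the other groups, vehicle mouse 3 stood highest, and TD139 mouse 1 was above all naïve mice while its 2 group mates were below all of them. The group means were 14.4 ± 3.37 CPM in naïve, 237 ± 169 CPM in vehicle and 17.0 ± 16.4 CPM in TD139 mice (SD, n = 3 each). Relative to the naïve mean, the vehicle mice reached 10.2-, 9.14- and 29.9-fold, and the TD139 mice 2.49-, 0.567- and 0.474-fold.

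In edgeR's quasi-likelihood fit over all genes, Serpina3n was 16.4-fold higher with vehicle than without light (log2 fold change 4.04, SE 0.86, adjusted p = 0.0434). With TD139 it was 14.0-fold lower than with vehicle (log2 fold change −3.80, SE 0.85, adjusted p = 0.0184). Leaving out single mice moved the first log2 fold change between 3.28 (without vehicle mouse 3) and 4.33, and its adjusted p in edgeR rose to 0.108, 0.133 and 0.111 without naïve mouse 1, 2 or 3, to 0.0849 and 0.0958 without vehicle mouse 1 or 3, and to 0.0547 without TD139 mouse 2. The second value was −4.98 without TD139 mouse 1 and −3.04 without vehicle mouse 3, and its adjusted p was 0.0734 and 0.0614 without TD139 mouse 2 or 3 and 0.0525 with only the groups compared in the fit.

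Serpina3m, whose product is a close relative of Serpina3n, was present at trace level without light. The naïve mice had 9, 10 and 5 counts, the vehicle mice 98, 91 and 315, and the TD139 mice 24, 5 and 1. In CPM these were 0.346, 0.377 and 0.183, then 3.50, 3.21 and 10.6, and then 0.889, 0.174 and 0.0395. The vehicle mice did not overlap with either other group, and the last TD139 mouse was below the limit that 3 counts set. The log2 fold change was 4.24 (SE 0.84, adjusted p = 0.0250 in edgeR) for vehicle against naïve and −3.95 (SE 0.82, adjusted p = 0.00942) for TD139 against vehicle. Since the gene passed the count filter through the vehicle mice alone, the direction of both was fixed, and neither call is a result of its own. Leaving out naïve mouse 1, 2 or 3 or vehicle mouse 1 or 3 gave edgeR adjusted p-values of 0.0754, 0.0928, 0.0845, 0.0513 and 0.0661 for the first comparison, and leaving out TD139 mouse 2 gave 0.0533 for the second. The log2 fold changes fell in size to 3.47 and −3.17 without vehicle mouse 3, and the second was −5.66 without TD139 mouse 1 and −5.21 with limma voom.

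Serpina3g, also known as Spi2A, encodes an intracellular serpin that inhibits cysteine cathepsins besides serine proteases. Its levels were 0.384, 1.13 and 0.843 CPM in naïve, 2.57, 2.82 and 5.54 CPM in vehicle, and 0.852, 0.939 and 0.513 CPM in TD139 mice. The vehicle mice were above all others, and the ranges of naïve and TD139 mice overlapped. The gene was 4.62-fold higher with vehicle than in naïve mice (log2 fold change 2.21, SE 0.45, adjusted p = 0.0233 in edgeR) and 4.71-fold lower with TD139 than with vehicle (−2.24, SE 0.45, adjusted p = 0.00690). For vehicle against naïve, the edgeR adjusted p was 0.0609, 0.0707 and 0.0598 leaving out naïve mouse 1, 2 or 3 and 0.0744 leaving out vehicle mouse 3.

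Serpina3f had 0.384, 0.339 and 0.330 CPM in naïve mice, 2.89, 1.59 and 6.15 CPM in vehicle mice and 0.852, 0.522 and 0.474 CPM in TD139 mice. The 3 groups did not overlap: naïve mice were lowest, TD139 mice intermediate and vehicle mice highest. The log2 fold change was 3.32 (SE 0.51, adjusted p = 0.0127 in edgeR) for vehicle against naïve and −2.52 (SE 0.48, adjusted p = 0.00629) for TD139 against vehicle. The difference between TD139 and naïve mice, a log2 fold change of 0.81 (SE 0.53), did not pass the test (adjusted p = 0.337 in edgeR). Without naïve mouse 2, the adjusted p for vehicle against naïve was 0.0673. When vehicle mouse 3 was left out, the log2 fold changes were 2.67 and −1.86.

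Other genes of the cluster, which were not among the 9, were Serpina3h, Serpina3i and Serpina3k. Serpina3h is annotated as a transcribed pseudogene and shared 24.4% of its windows with other genes. It had a mean of 18.2 ± 1.53 CPM (SD, n = 3) in naïve mice, 33.2 to 87.6 CPM in vehicle and 15.5 to 19.8 CPM in TD139 mice, and passed the edgeR test in both comparisons (log2 fold change 1.51, adjusted p = 0.0393, and −1.58, adjusted p = 0.0126). The first adjusted p was 0.0953, 0.125 and 0.127 leaving out naïve mouse 1, 2 or 3 and 0.0589 and 0.0611 leaving out TD139 mouse 2 or 3, and the second was 0.0633 and 0.0548 leaving out TD139 mouse 2 or 3 (edgeR). The first call was also lost without the count filter (0.0606), with only the groups compared (0.0781) and with the replicate block (0.0608), and the second with the block and the correction for GC content and length together (0.0582). Without vehicle mouse 3 the log2 fold changes were 0.90 and −0.97. Serpina3k, at 0.424 to 0.974 CPM in vehicle mice and at most 0.264 CPM elsewhere, had a log2 fold change of −2.16 (SE 0.54, adjusted p = 0.0133 in edgeR) for TD139 against vehicle. It passed the count filter through the vehicle mice alone and therefore had to differ, so this call is no result of its own. Serpina3i had log2 fold changes of 1.56 and −1.21 without passing either edgeR test (adjusted p = 0.0535 and 0.0510). Summing the cluster to 1 feature, a step chosen after the data were seen because reads can be split between the copies, gave log2 fold changes of 3.09 (adjusted p = 0.0288 in edgeR) and −2.99 (adjusted p = 0.0108).

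Serpina3n took 32.1 to 45.5% of the counts of the cluster in naïve, 74.4 to 78.0% in vehicle and 24.8 to 58.3% in TD139 mice. Of all serpin counts it made up 7.25, 9.47 and 11.5% in naïve, 37.5, 30.3 and 54.7% in vehicle, and 16.9, 5.63 and 5.16% in TD139 mice. All 63 serpin symbols together reached 148, 160 and 152 CPM, then 394, 435 and 789 CPM, and then 213, 145 and 133 CPM, in the same order of mice. The serpin total of each vehicle mouse was thus above those of all mice of the other groups. Serpini1 made up 33.8 to 38.7% of the serpin counts in naïve, 5.83 to 13.1% in vehicle and 26.3 to 50.4% in TD139 mice.

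**Figure D1:**
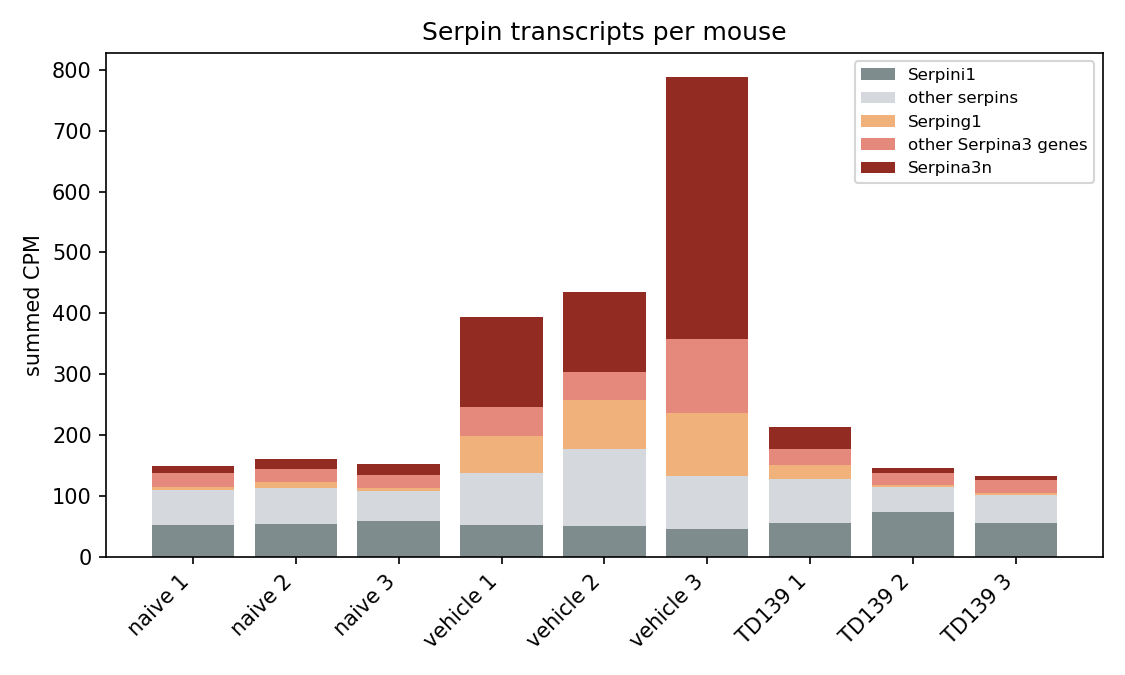
Stacked bars of the summed CPM of all serpin symbols in each of the 9 mice, divided into Serpini1, Serping1, Serpina3n, the other Serpina3 genes and the remaining serpins. The bars reach 133 to 213 CPM in naïve and TD139 mice and 394 to 789 CPM in vehicle mice, where Serpina3n makes up 30.3 to 54.7% of the counts.

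Serpine2 (chr1:79794197-79861180) encodes protease nexin 1, an inhibitor of thrombin and of both plasminogen activators. Its levels were 16.3, 13.6 and 14.8 CPM in naïve, 24.3, 24.9 and 23.5 CPM in vehicle and 15.8, 11.1 and 12.9 CPM in TD139 mice. The vehicle mice were close to one another, with a mean of 24.2 ± 0.713 CPM (SD, n = 3), and above all other mice. The change was 1.63-fold for vehicle against naïve (log2 fold change 0.70, SE 0.15, adjusted p = 0.0247 in edgeR), and Serpine2 was 1.83-fold lower with TD139 than with vehicle (−0.87, SE 0.15, adjusted p = 0.00568). In edgeR, the first adjusted p was 0.0554, 0.0948 and 0.0627 when naïve mouse 1, 2 or 3 was left out and 0.0694 and 0.0665 when vehicle mouse 1 or 3 was, while the log2 fold change moved only between 0.64 and 0.77.

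Serpinb6a (chr13:33917918-34002794) encodes an intracellular inhibitor that acts on cathepsin G and related proteases. It had 13.4, 14.1 and 11.9 CPM in naïve, 17.7, 25.3 and 25.3 CPM in vehicle, and 14.2, 7.48 and 8.81 CPM in TD139 mice. The vehicle mice lay above all others, and TD139 mice 2 and 3 lay below all naïve mice. The log2 fold change of 0.80 for vehicle against naïve (SE 0.23) missed the threshold (adjusted p = 0.0569 in edgeR), and was called without TD139 mouse 1 (adjusted p = 0.0130) or 2 (adjusted p = 0.0499). It was also called with DESeq2, with limma voom, with library size alone and with only the groups compared. With TD139 the gene was 2.24-fold lower than with vehicle (−1.17, SE 0.23, adjusted p = 0.00688 in edgeR). Without TD139 mouse 1, it was also lower with TD139 than in naïve mice (−0.69, adjusted p = 0.0474 in edgeR).

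Serpinh1 (chr7:99345376-99353239) encodes HSP47, a chaperone of procollagen in the endoplasmic reticulum. Its levels were 13.3, 15.0 and 11.2 CPM in naïve, 22.9, 36.0 and 17.8 CPM in vehicle, and 16.8, 11.1 and 13.5 CPM in TD139 mice. The vehicle mice were above all others, but the highest was mouse 2, the library with RNA of lens, muscle and surface epithelium. The log2 fold change was 0.95 (SE 0.25, adjusted p = 0.0431 in edgeR) for vehicle against naïve and −0.89 (SE 0.25, adjusted p = 0.0207) for TD139 against vehicle. Without vehicle mouse 2 these were 0.62 (adjusted p = 0.0930 in edgeR) and −0.56 (adjusted p = 0.0691), so neither call held without it. For vehicle against naïve the edgeR adjusted p was also 0.0951, 0.0991 and 0.123 without naïve mouse 1, 2 or 3, 0.0899 and 0.0558 without vehicle mouse 1 or 3, and 0.0636 without TD139 mouse 3. The call was lost as well with the replicate block and in flow cell run 2 alone, where the adjusted p was 0.0782. For TD139 against vehicle it was 0.0931 and 0.0748 without TD139 mouse 2 or 3. Correcting for GC content and the length of transcripts gave −0.55 (adjusted p = 0.105 in edgeR) for TD139 against vehicle.

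Serpinf1 (chr11:75409769-75422701) encodes pigment epithelium-derived factor, a secreted serpin without inhibitory activity that is neurotrophic and opposes vessel growth. It had 3.99, 4.18 and 3.66 CPM in naïve, 3.86, 8.93 and 4.87 CPM in vehicle, and 4.78, 2.57 and 2.73 CPM in TD139 mice. The 3 groups overlapped, and vehicle mouse 2 was again the highest. Neither the log2 fold change of 0.58 for vehicle against naïve (SE 0.33, adjusted p = 0.280 in edgeR) nor that of −0.81 for TD139 against vehicle (SE 0.33, adjusted p = 0.0796) passed the test. Without vehicle mouse 2 these values were 0.14 and −0.38. The second was called without vehicle mouse 1 (−1.03, adjusted p = 0.0444 in edgeR) and without TD139 mouse 1 (−1.15, adjusted p = 0.0216). It was also called with limma voom on all mice (adjusted p = 0.0347). The summed level of 8 markers of the pigment epithelium and choroid was 480 CPM in vehicle mouse 2 and 125 to 289 CPM in the other mice, and its part in the Serpinf1 values was not tested.

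Serpini1 (chr3:75557547-75643495) encodes neuroserpin, a neuronal inhibitor of tissue plasminogen activator. Its levels were 52.0, 54.0 and 58.6 CPM in naïve, 51.7, 50.5 and 46.0 CPM in vehicle, and 55.9, 73.1 and 55.7 CPM in TD139 mice. The vehicle mice were below all others by a small margin, and TD139 mouse 2 was the highest. The log2 fold change was −0.15 (SE 0.12, adjusted p = 0.434 in edgeR) for vehicle against naïve and 0.32 (SE 0.12, adjusted p = 0.0593) for TD139 against vehicle, so neither passed the test. The latter was called without TD139 mouse 1 (0.39, adjusted p = 0.0356 in edgeR), and its sign turned to −0.11 (adjusted p = 0.337 in edgeR) when GC content and the length of transcripts were corrected for.

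**Figure D2:**
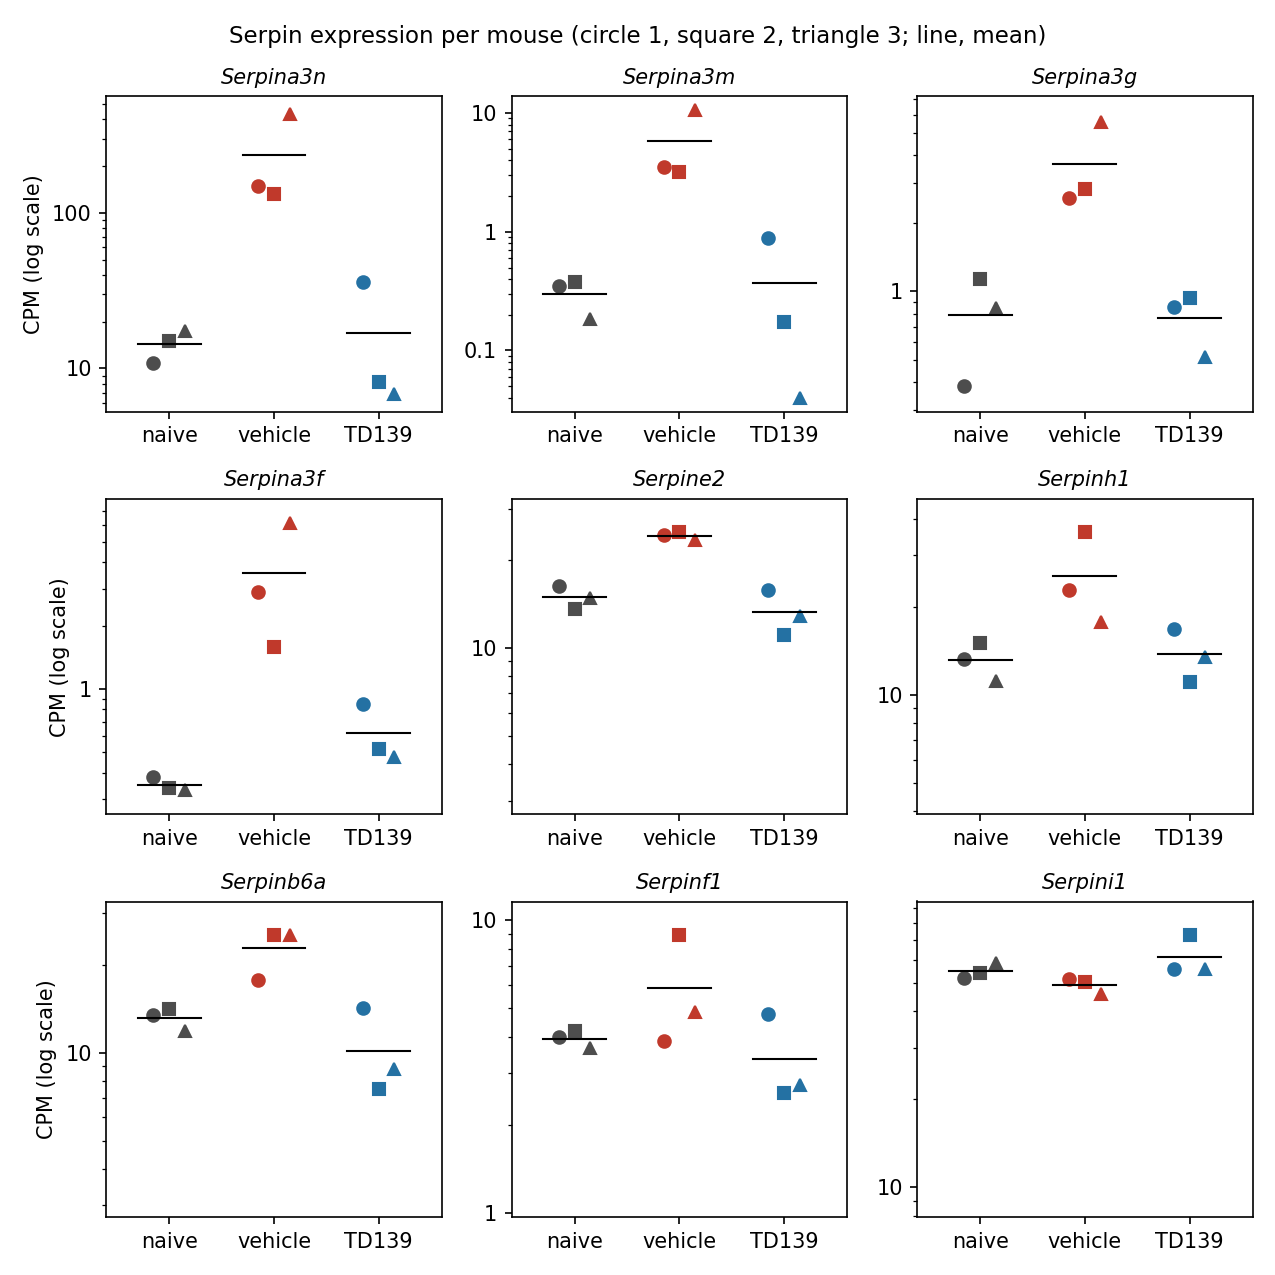
CPM on a log axis for each of the 9 serpins, with 1 point per mouse (circle mouse 1, square mouse 2, triangle mouse 3) and a line at the mean of each group of 3. The vehicle mice lie above both other groups for Serpina3n (132 to 431 CPM), the other Serpina3 genes, Serpine2, Serpinh1 and Serpinb6a, overlap with them for Serpinf1, and lie below them for Serpini1 (46.0 to 51.7 CPM).

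Levels of different genes were compared per kilobase of the longest transcript. In naïve mice Serpini1 was the highest of the 9 at 13.4 CPM per kb, followed by Serpina3n (6.99), Serpinb6a (5.99) and Serpinh1 (5.80), whose ranges overlapped. Serpine2 (4.39 CPM per kb) and Serpinf1 (2.15) came next, and Serpina3g (0.436), Serpina3m (0.182) and Serpina3f (0.156) were lowest, with overlapping ranges between neighbours. In vehicle mice Serpina3n led at 115 CPM per kb, ahead of Serpini1 (12.1), Serpinh1 (11.2) and Serpinb6a (10.4), which overlapped. The order ended there with Serpine2 (7.14 CPM per kb), Serpina3m (3.47), Serpinf1 (3.21), Serpina3g (2.02) and Serpina3f (1.58), and neighbours among the last 4 overlapped. In TD139 mice Serpini1 was again first at 15.0 CPM per kb, with Serpina3n at 8.22 over a range that overlapped with those of Serpini1, Serpinh1 (6.07), Serpinb6a (4.64) and Serpine2 (3.91). The lowest there were Serpinf1 (1.83 CPM per kb), Serpina3g (0.426), Serpina3f (0.274) and Serpina3m (0.222).

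For vehicle against naïve mice, 6 of the 9 genes were called higher at an adjusted p under 0.05 in edgeR, where 4.91% of the 15196 tested genes were, and 0 were called lower, against 2.89% of all genes. With DESeq2 and with limma voom 7 of the 9 were higher and 0 lower, and at an unadjusted p under 0.05 in edgeR 7 were higher and 0 lower. With the additional cut-off of a log2 fold change of 2 that the study used, the 4 Serpina3 genes passed, against 1.24% of all genes. Serpina3g was under that cut-off without naïve mouse 1 (1.88) or vehicle mouse 3 (1.78), in flow cell run 2 alone (1.95) and with limma voom (1.70), and the genes past it numbered 1, 0 and 1 when naïve mouse 1, 2 or 3 was omitted, and 2, 4 and 1 when vehicle mouse 1, 2 or 3 was. The mice of both groups did not overlap, with vehicle higher, for 7 of the 9, against 16.7% of all genes. The median log2 fold change was 0.95 over the 9 genes, 1.38 over all 20 tested serpins and −0.00 over all genes. For TD139 against vehicle, 7 of the 9 were called lower, against 16.2% of all genes, 4 of them past a log2 fold change of −2 (2 without vehicle mouse 3 or TD139 mouse 2), against 1.53%, and 0 were called higher, against 17.2%. Serpini1 was the 1 gene of the 9 that was higher at an unadjusted p under 0.05 in edgeR. With DESeq2 1 gene, again Serpini1, was called higher, against 19.9% of all genes, and with limma voom 0 were, against 23.4%. The mice did not overlap, with TD139 lower, for 7 of the 9, against 25.4% of all genes. The medians were −1.17 over the 9, −1.19 over the 20 tested serpins and −0.02 over all genes. Serpina3m enters all of these counts although its direction was fixed by the filter. Over the other 8 genes, 5 were called higher with vehicle and 6 lower with TD139, 3 passed the cut-off in each comparison, 6 did not overlap in each, and the medians were 0.87 and −1.03. Over the 17 tested serpins that had 3 or more naïve or TD139 mice past the filter the medians were 1.16 and −1.07. The shares of all genes depended on single mice. For vehicle against naïve, the share called higher ranged from 0.00647% (1 gene) without naïve mouse 2 and 0.39% without naïve mouse 1 to 7.28% without TD139 mouse 1. Of the 9 genes, 1, 0 and 1 were called higher without naïve mouse 1, 2 or 3, 2 without vehicle mouse 1 and 1 without vehicle mouse 3. For TD139 against vehicle, the share called lower was 4.9% without TD139 mouse 2 and 5.62% without TD139 mouse 3, where 4 and 5 of the 9 were called lower, 8.38% without vehicle mouse 3, and 18.8% without TD139 mouse 1. With the correction for GC content and length it was 10.6%. The vehicle mice enter both comparisons, and the 9 genes were chosen by their results, so these counts are no independent evidence of a family-wide change.

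For TD139 against naïve mice, 0 of the 20 tested serpins were called in either direction in edgeR, where 2.72% of all genes were called higher and 2.38% lower. The number of all genes called depended on single mice, with 0 without naïve mouse 1 or 2, vehicle mouse 2 or TD139 mouse 2 or 3, and 1484 higher and 1190 lower without naïve mouse 3. At an unadjusted p under 0.05 the count of serpins in edgeR was also 0. With DESeq2 0 serpins were called, where 9.4% of all genes were higher and 7.61% lower. With limma voom 1 was called lower, Serpinb6a, where 19.7% of all genes were higher and 16.3% lower. The log2 fold changes of the 9 genes lay between −0.37 for Serpinb6a and 0.81 for Serpina3f, with a median of 0.07. The precision differed greatly among them, with an SE of 0.80 for Serpina3n (log2 fold change 0.23) and 0.92 for Serpina3m (0.29) against 0.12 for Serpini1 (0.17) and 0.15 for Serpine2 (−0.17). For Serpina3n and Serpina3m, TD139 mouse 1 decided the direction: without it the values were −0.94 (adjusted p = 0.369 in edgeR) and −1.42 (adjusted p = 0.276). A difference from naïve mice was not detectable for these genes, which does not show that the levels were equal.

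**Figure D3:**
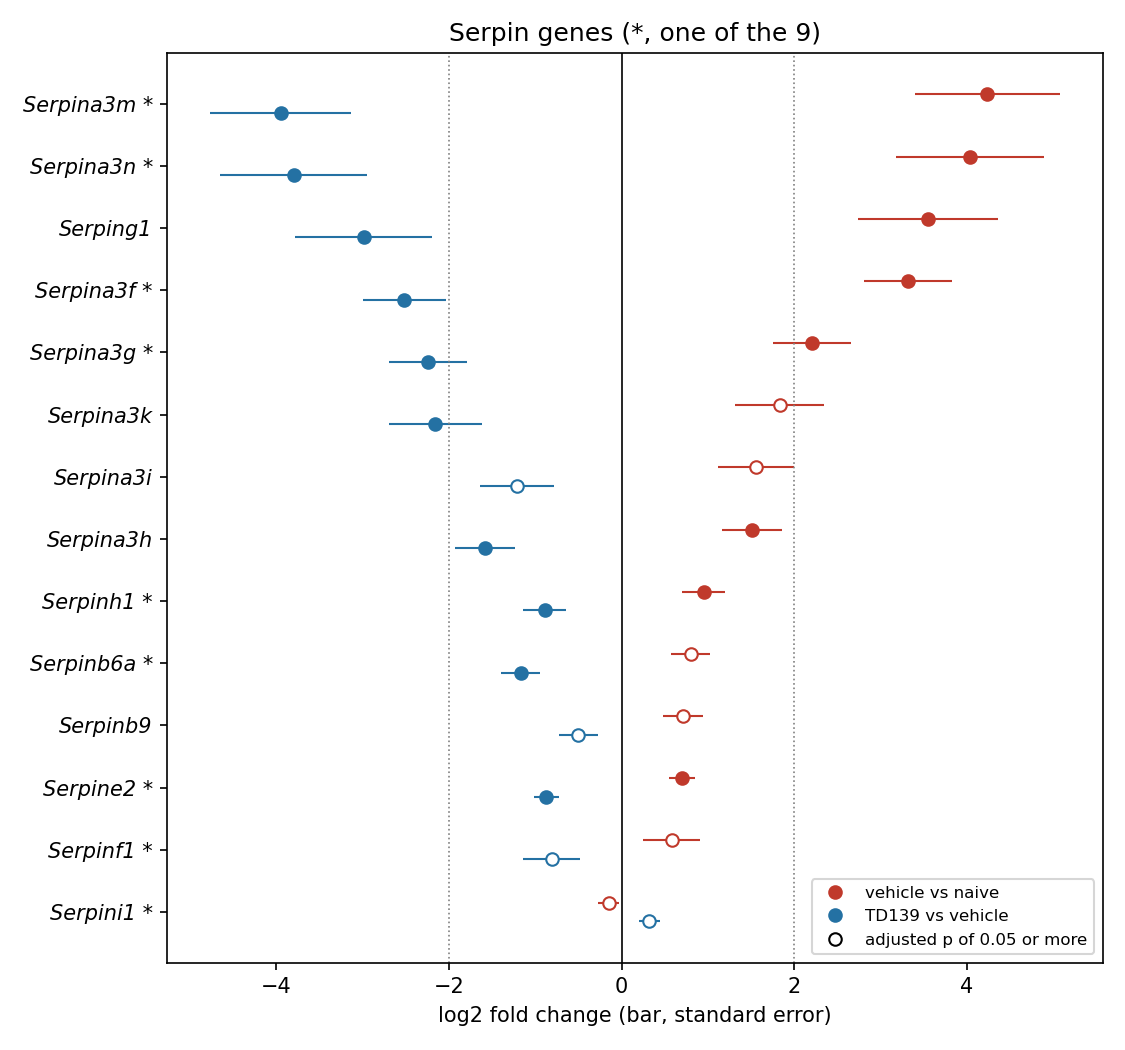
Log2 fold changes with standard errors of the 9 genes and of Serpina3h, Serpina3i, Serpina3k, Serping1 and Serpinb9 for vehicle against naïve (red) and TD139 against vehicle (blue), filled where the adjusted p was under 0.05, with dotted lines at −2 and 2. The 4 chosen Serpina3 genes lie past the dotted lines in both comparisons, whereas Serpini1 lies at −0.15 and 0.32.

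The 54 other serpins entered by name alone. Of these, 11 passed the filter, Serpina3k through the vehicle mice alone and Serpind1 through 2 vehicle and 2 other mice. With vehicle, 2 were called higher than in naïve mice (Serpina3h and Serping1), where 4.91% of all genes were, and with TD139, 3 were called lower than with vehicle (Serpina3h, Serping1 and Serpina3k, which had to differ), where 16.2% of all genes were. Serping1 encodes the C1 inhibitor, which restrains the first complement proteases and plasma kallikrein. It had 5.65, 10.4 and 4.98 CPM in naïve, 61.2, 81.4 and 103 CPM in vehicle and 23.2, 4.21 and 3.48 CPM in TD139 mice. The vehicle mice were again above all others and TD139 mouse 1 the highest of its group. The log2 fold changes were 3.55 (SE 0.81, adjusted p = 0.0493 in edgeR) and −2.99 (SE 0.79, adjusted p = 0.0291). The first call was lost without any 1 of the naïve or vehicle mice (adjusted p from 0.0731 to 0.137 in edgeR) and without TD139 mouse 2 (0.0526), and also with library size alone (0.0544), without the count filter (0.0663), in flow cell run 1 alone (0.0545) and with the replicate block (0.0971, or 0.0749 with the correction for GC content and length). The second was lost without vehicle mouse 2 (0.0536) or 3 (0.0807) and without TD139 mouse 2 (0.0912) or 3 (0.0718), with only the groups compared (0.0676) and with the block (0.0621, or 0.0896 with that correction), while its log2 fold change stayed between −4.41 and −2.58 under all alternatives run. Serpinb9, an inhibitor of granzyme B, had 2.89 to 3.53 CPM in naïve and 4.60 to 6.40 CPM in vehicle mice without passing the test (0.71, adjusted p = 0.0755 in edgeR).

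The filter left out 43 serpins, of which 19 had 0 counts in all mice and 32 had at most 10 counts in total. Several of the rest came from a single library. Vehicle mouse 2 held 35 counts of Serpinb5, 47 of Serpinb3a, 29 of Serpinb11 and 78 of Serpinb1a, serpins known from stratified epithelia and leukocytes, where each other mouse had at most 6. All serpins together had 12323 counts in that mouse.

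**Figure D4:**
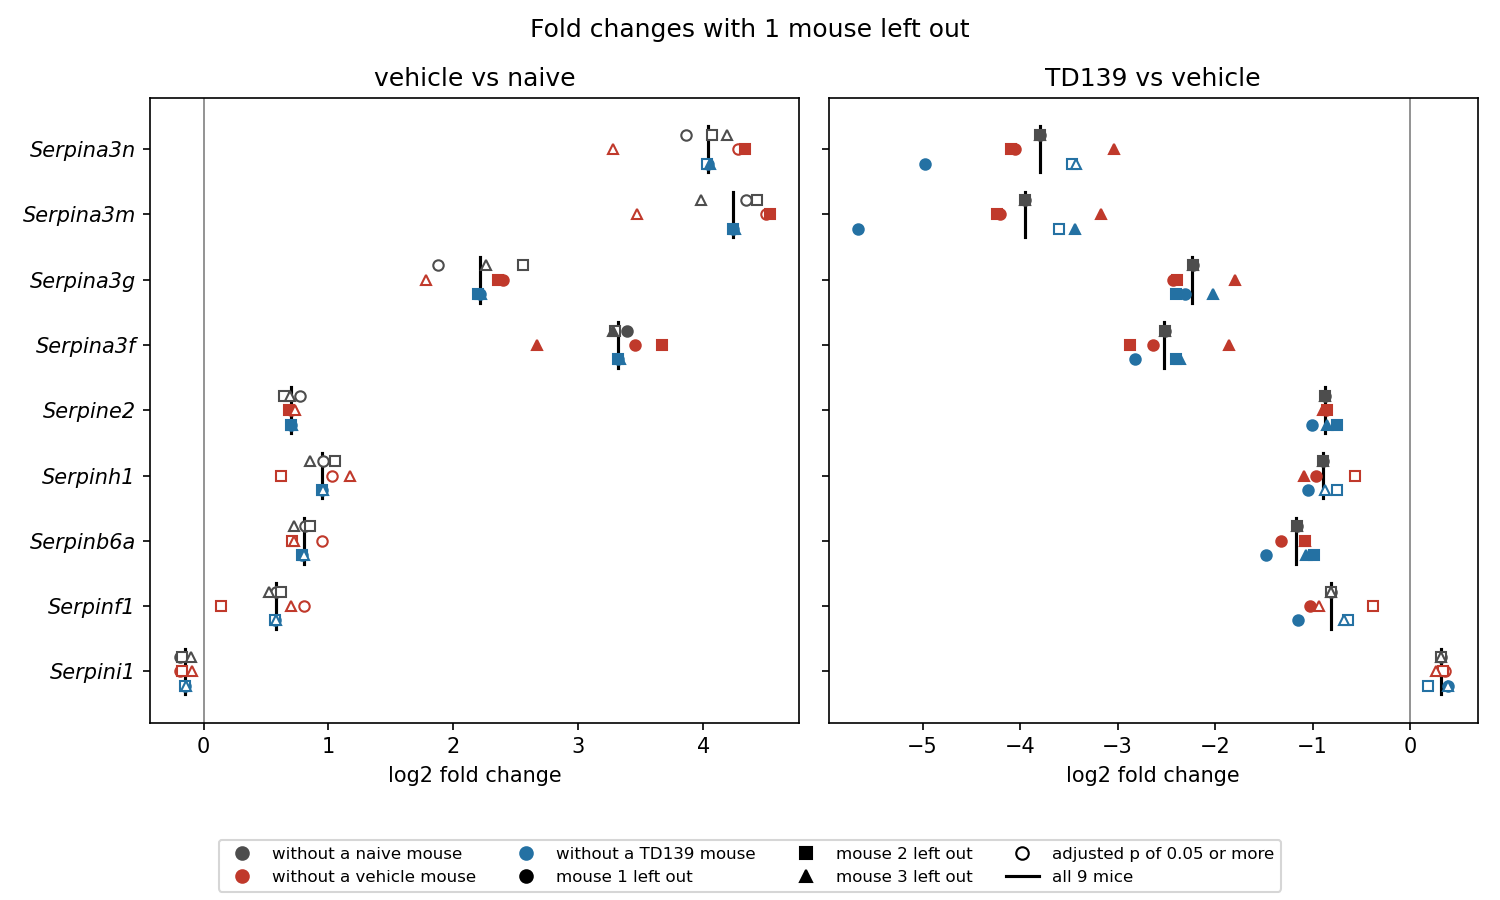
Log2 fold changes of the 9 serpins with each mouse left out in turn (colour, group; shape, mouse number), beside the value with all 9 mice (black line), for vehicle against naïve and TD139 against vehicle. Open symbols had an adjusted p of 0.05 or more; Serpina3n ranges from 3.28 to 4.33 and from −4.98 to −3.04, and the Serpinf1 and Serpinh1 values lie closest to 0 without vehicle mouse 2.

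Promoters were searched for TTCNNNGAA, the palindrome to which STAT3 and related factors can bind, which reads the same on both strands. The RefSeq promoter table on GRCm38.p6 (250 bases before to 50 after the start) had entries for 8 of the 9 genes. Their 10 promoters, of which Serpina3f and Serpinb6a have a pair each, held the motif in 4, against 8.3% of 32851 promoters: that of Serpina3g, the overlapping pair of Serpina3f and the first of Serpinb6a. It was not found in the window of Serpina3n, which says only that these letters are not there. Windows of 60 bases are printed to compare these sites, with the first match in capitals: chr12:104236089-104236148 (plus strand) for Serpina3g, chr12:104214398-104214457 (plus strand) for Serpina3f and chr13:34002837-34002896 (minus strand) for Serpinb6a.
Serpina3g: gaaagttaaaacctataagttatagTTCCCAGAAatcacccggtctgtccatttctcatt
Serpina3f: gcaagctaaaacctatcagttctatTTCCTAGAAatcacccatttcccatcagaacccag
Serpinb6a: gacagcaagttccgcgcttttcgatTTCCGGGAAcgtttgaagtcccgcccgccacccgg
The printed match lay 33 bases before the start of Serpina3g, 121 before the first start of Serpina3f and 77 before the first start of Serpinb6a, whose promoter held another match 20 bases after the start. The second promoter of Serpinb6a held none. Position by position, the windows of Serpina3g and Serpina3f were the same at 20 of the 25 bases before the match and at the first 7 after it, but at only 9 of the 26 after it in all. Against Serpinb6a they were the same at 10 and 13 of the 25 before and at 6 and 10 of the 26 after. A match is a description of the letters and not a site of binding.

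The genes on which serpins act were described by lists. Of 18 tested serine proteases, 2 were called higher and 1 lower with vehicle than in naïve mice, and 8 were lower with TD139 than with vehicle. Over all genes these shares were 4.91%, 2.89% and 16.2%. Leaving out single mice gave 0 to 2 higher with vehicle, with 0 when naïve mouse 1 or 2 was left out, and 2 (TD139 mouse 2 left out) to 7 lower with TD139. Plau, which encodes urokinase, a target of the Serpine2 product, rose from 0.817 to 12 CPM with vehicle (log2 fold change 3.88, SE 0.52, adjusted p = 0.0127 in edgeR) and was at 1.74 CPM with TD139 (−2.78, SE 0.49, adjusted p = 0.00604). Htra1, a secreted protease, had means of 96.8 CPM in naïve, 174 CPM in vehicle and 78.2 CPM in TD139 mice, and passed the edgeR test in both comparisons (adjusted p = 0.0465 and 0.00710). Its first call was lost in flow cell run 1 alone (adjusted p = 0.0525), without the count filter (0.0601) and with only the groups compared (0.0562). It was also lost with the correction for GC content and length (0.0651). Without any 1 naïve mouse, vehicle mouse 2 or 3 or TD139 mouse 2 or 3 the adjusted p was 0.0547 to 0.144 in edgeR. St14 (−2.02, adjusted p = 0.00935) and Prss23 (−0.97, adjusted p = 0.0161), a membrane-bound and a secreted protease, were called for TD139 against vehicle alone in edgeR, and Furin, a proprotein convertase at 75.1 to 80.7 CPM in the means of the groups, in neither comparison (adjusted p = 0.674 and 0.496). Without TD139 mouse 2 the calls of St14 (adjusted p = 0.0513 in edgeR) and Prss23 (0.0781) were lost. That of Prss23 was also lost without vehicle mouse 3 (0.067) or TD139 mouse 3 (0.0534). The median of the list was 0.11 for vehicle against naïve and −0.74 for TD139 against vehicle.

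Cysteine cathepsins, the lysosomal proteases that the Serpina3g product can inhibit, formed a list of 7 tested genes, of which 6 were called higher with vehicle and 6 lower with TD139, against 4.91% and 16.2% of all genes, with medians of 1.32 and −1.51. When naïve mouse 2 or vehicle mouse 3 was left out, 0 were called higher with vehicle, and 1, 2 and 3 without naïve mouse 1, naïve mouse 3 or vehicle mouse 1, whereas 6 were lower with TD139 whichever mouse was left out. Ctss, the cathepsin of microglia and macrophages, had a mean of 30.9 CPM in vehicle mice, 3.08-fold that of naïve mice, and of 9.63 CPM in TD139 mice (log2 fold changes 1.62, adjusted p = 0.0184, and −1.68, adjusted p = 0.00575 in edgeR). Ctsl had 178, 461 and 151 CPM, and passed the edgeR test in both comparisons (adjusted p = 0.0235 and 0.00589). Ctsb, at means of 455, 861 and 473 CPM (adjusted p = 0.0134 and 0.00568), and Ctsz, at 47.3, 125 and 43.7 CPM (adjusted p = 0.0207 and 0.00591), passed it as well.

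Among 15 tested receptors of serpins and their proteases, 3 were called higher with vehicle than in naïve mice, and 2 were higher and 5 lower with TD139 than with vehicle. Over all genes 4.91% were higher with vehicle, and 17.2% higher and 16.2% lower with TD139. Of the 5, F2rl1 passed the count filter through the vehicle mice alone and had to differ. With single mice left out, 0 to 5 were higher with vehicle (0 without any 1 naïve mouse or vehicle mouse 3), and 2 to 6 were lower with TD139. Pnpla2, a lipase described as a receptor of the Serpinf1 product, had means of 28.5, 42.6 and 22.5 CPM in naïve, vehicle and TD139 mice (log2 fold change 0.58, adjusted p = 0.0262, and −0.92, adjusted p = 0.00500 in edgeR). Lrp1, the endocytic receptor that clears serpin-protease complexes, was 1.34-fold higher with vehicle (adjusted p = 0.0279 in edgeR), was not called between TD139 and vehicle (0.07, adjusted p = 0.580), and was 1.41-fold higher with TD139 than in naïve mice (adjusted p = 0.0406). In that last comparison 0 of all tested genes were called without naïve mouse 1 or 2, vehicle mouse 2 or TD139 mouse 2 or 3, with the replicate block and with the correction for GC content and length, so the calls of Lrp1 and of Rpsa, which was lower there (−0.53, adjusted p = 0.0414 in edgeR), were lost in those fits. Vldlr, a receptor of the same family, was higher with TD139 than with vehicle (0.83, SE 0.17, adjusted p = 0.00782 in edgeR), as was Lrp6 (0.64, adjusted p = 0.0104), a co-receptor of Wnt signalling. Both calls were lost with the correction for GC content and length (0.29, adjusted p = 0.0895, and 0.09, adjusted p = 0.424 in edgeR), and that of Lrp6 without TD139 mouse 2 (adjusted p = 0.0529). Rpsa, which encodes a ribosomal protein and is listed here because its product is also described as a laminin receptor, was lower with TD139 than with vehicle (−0.60, adjusted p = 0.00598 in edgeR). The medians of this list were 0.13 and −0.05.

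Of 16 tested protease inhibitors outside the family, 2 were higher with vehicle, and 4 were lower and 1 higher with TD139, against 4.91%, 16.2% and 17.2% of all genes. The number higher with vehicle was 0 when naïve mouse 1 or 2 was left out and 4 at most, and 3 to 6 were lower with TD139. A2m, which encodes alpha-2-macroglobulin, had means of 11.3, 57.1 and 11 CPM (log2 fold changes 2.34, SE 0.32, adjusted p = 0.0127, and −2.38, SE 0.32, adjusted p = 0.00500 in edgeR), whereas Cst3, the most abundant inhibitor listed, had 1029, 1006 and 714 CPM and was not called (adjusted p = 0.933 and 0.0908). Pebp1 (−0.61, adjusted p = 0.00554) and the cathepsin inhibitor Cstb (−0.83, adjusted p = 0.00601) were lower and the proteoglycan Spock2 (0.47, adjusted p = 0.0172) was higher with TD139 than with vehicle in edgeR. The call of Spock2 was lost without vehicle mouse 3 (adjusted p = 0.0538) or TD139 mouse 2 (0.0584) or 3 (0.0762), and that of Pebp1 with the correction for GC content and length (−0.10, adjusted p = 0.379).

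For the collagens and the proteins that fold them, the clients and partners of the Serpinh1 product, 1 of 20 was higher with vehicle and 5 of 20 were lower with TD139, against 4.91% and 16.2% of all genes. Omitting single mice gave 0 to 3 and 1 to 5, with 1 lower when vehicle mouse 2 or TD139 mouse 2 or 3 was omitted. Fkbp10, another collagen chaperone, had means of 8.29, 21.9 and 8.07 CPM and was called only for TD139 against vehicle (−1.44, adjusted p = 0.0225, against 1.40, adjusted p = 0.0602 in edgeR for vehicle against naïve). Its call was lost with the correction for GC content and length (adjusted p = 0.0508, or 0.0806 with the replicate block as well) and with only the groups compared (0.0627). It was also lost without vehicle mouse 2 (0.0567) or 3 (0.0629) and without TD139 mouse 2 (0.0545) or 3 (0.0862). Plod1, a lysyl hydroxylase, was the 1 gene called higher with vehicle (0.46, adjusted p = 0.0235 in edgeR) and was lower with TD139 (−0.31, adjusted p = 0.0273), as were Ppib (−0.70, adjusted p = 0.00575) and P4hb (−0.28, adjusted p = 0.0306), but P4hb was at −0.08 (adjusted p = 0.495) with the correction for GC content and length. The first call of Plod1 was lost without naïve mouse 1 (adjusted p = 0.0622 in edgeR) or 2 (0.0845) and without vehicle mouse 1 (0.0634) or 3 (0.0646). Its call for TD139 against vehicle was lost in flow cell run 2 alone (0.0828) and without any 1 vehicle mouse (0.0604 to 0.0668). It was also lost without TD139 mouse 2 (0.111) or 3 (0.0756), as was that of P4hb (0.0881 and 0.104). Mia3, a collagen export factor, was not called (adjusted p = 0.649 and 0.256). Of 12 heat shock genes, 2 were higher with vehicle, and 2 were higher and 2 lower with TD139, against 4.91%, 17.2% and 16.2% of all genes. Higher with vehicle were 0 when any 1 naïve or vehicle mouse or TD139 mouse 2 was omitted. With TD139, 1 was higher in each fit that omitted a mouse other than TD139 mouse 1, and 0 and 1 were lower when TD139 mouse 2 or 3 was omitted. Bag3, a co-chaperone, had log2 fold changes of 1.16 (adjusted p = 0.0386 in edgeR) and −1.21 (adjusted p = 0.0123), while Hsp90aa1 was higher with TD139 than with vehicle (0.62, adjusted p = 0.00769). Hsph1 had a log2 fold change of 0.47 (adjusted p = 0.0477 in edgeR) with mice that overlapped, and its call was lost in each fit that omitted a mouse other than TD139 mouse 1 (adjusted p from 0.0587 to 0.198) and with the correction for GC content and length (0.281). Hsp90ab1 was higher with vehicle (0.33, adjusted p = 0.0489 in edgeR) and lower with TD139 (−0.40, adjusted p = 0.0100), the latter call lost with that correction (−0.20, adjusted p = 0.0735) and without TD139 mouse 2 (0.0515). Its call for vehicle against naïve was also lost in flow cell run 2 alone (0.0606), without the count filter (0.0673) and with only the groups compared (0.063). The same held with the replicate block (0.0794) and without TD139 mouse 3 (0.0676).

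Genes of the acute phase and of reactive glia formed a list without serpins of 17 tested genes, with 9 higher with vehicle and 15 lower with TD139, against 4.91% and 16.2% of all genes, and medians of 2.31 and −2.29. Steap4 and Aspg, among the 15, passed the count filter through the vehicle mice alone and had to differ. The number higher with vehicle was 0 without naïve mouse 1 or 2, 2 and 3 without naïve mouse 3 or vehicle mouse 3, and 15 without TD139 mouse 1, and 6 (TD139 mouse 2 left out) to 17 (TD139 mouse 1 left out) were lower with TD139. Timp1, an inhibitor of metalloproteinases, had means of 0.967, 21.5 and 0.738 CPM in naïve, vehicle and TD139 mice (log2 fold changes 4.47, adjusted p = 0.0171, and −4.86, adjusted p = 0.00568 in edgeR). Cp, which encodes the acute phase ferroxidase ceruloplasmin, had 144, 702 and 193 CPM (2.29, adjusted p = 0.0235, and −1.86, adjusted p = 0.0118 in edgeR). Lif, a cytokine that acts upstream of STAT3 in Müller glia, had 0.583, 3.56 and 0.723 CPM (2.6, adjusted p = 0.0185, and −2.29, adjusted p = 0.00701 in edgeR). Cebpb, an acute phase transcription factor (1.53, adjusted p = 0.0173, and −1.93, adjusted p = 0.00500 in edgeR), and Vim, an intermediate filament of glia (1.14, adjusted p = 0.0216, and −1.47, adjusted p = 0.00543), passed the test in both comparisons too.

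Markers of other cells were examined beside the serpins. The summed level of 8 microglial markers was 59.8 to 67.0 CPM in naïve, 208 to 314 CPM in vehicle, and 130, 54.9 and 46.5 CPM in TD139 mice. Of the 8, 6 were called higher with vehicle than in naïve mice and 6 lower with TD139 than with vehicle in edgeR. Over all genes these shares were 4.91% and 16.2%. Of 5 markers of monocytes and neutrophils, 2 were tested and 0 called in edgeR. Their sum came almost wholly from Lyz2, which had 20, 51 and 22 counts in naïve, 2586, 1250 and 2797 in vehicle and 723, 20 and 22 in TD139 mice (log2 fold change 6.04, adjusted p = 0.0741, and −3.02, adjusted p = 0.125 in edgeR), while S100a8, S100a9 and Ccr2 had at most 11 counts in any mouse and Ly6c2 had 6 to 18. The mice with the highest Serpina3n of their light-exposed group, vehicle mouse 3 and TD139 mouse 1, also had the highest microglial sum and the most Lyz2 counts in it. The 6 rod markers summed to 70885 to 81565 CPM in naïve and 41195 to 57915 CPM in vehicle mice, with the lowest value in vehicle mouse 3, and to 58313, 72357 and 65736 CPM in TD139 mice. Of these 6, 4 were called lower and 0 higher with vehicle than in naïve mice, against 2.89% and 4.91% of all genes. With TD139, 2 were called higher and 0 lower than with vehicle, against 17.2% and 16.2%. The 6 markers of Müller glia, dominated by Glul, summed to 3397 to 4056, 4091 to 4675 and 3996 to 4505 CPM. Among them, Slc1a3 (0.79, adjusted p = 0.0386) and Aqp4 (0.78, adjusted p = 0.0216) were called higher with vehicle than in naïve mice in edgeR, and 0 of the 6 were called between TD139 and vehicle. The 8 markers of inner neurons summed to 3060 to 3347, 3202 to 3859 and 3490 to 3837 CPM. The part of cell composition in the serpin values was not tested.

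The genes with the most similar course over the 9 mice were sought among the 13093 genes that averaged 50 counts or more, by Pearson's r of log2 CPM. These correlations are a description, since the mice fall into groups. The nearest to Serpina3n were Csf1 (r = 0.997), which encodes a growth factor of microglia, Bcl3 (0.9967) and Plscr1 (0.9938). Serpina3g was nearest to Socs3 (r = 0.9784), a feedback inhibitor of STAT3 signalling, Gbp9 (0.9669) and Hmox1 (0.9661), and Serpina3f to Ppap2b (0.9873), Cd44 (0.9839) and Msr1 (0.9792). Serpinf1 was nearest to Igfbp6 (r = 0.9782), Folr1 (0.9688), which encodes a folate receptor of the pigment epithelium, and Dapl1 (0.9654). Serpinh1 was nearest to Loxl1 (0.9821), which crosslinks elastic fibres, Arvcf (0.9755) and Dync1i1 (0.9738), and Serpinb6a to Tapbp (0.9864), which loads peptides on MHC class I, S100a6 (0.985) and Lsr (0.9838). The nearest were Slc25a39 (0.9827), Tgif2 (0.9803) and Tlcd1 (0.9765) for Serpine2, Nsg1 (0.992), Tmbim1 (0.9906) and Dirc2 (0.9904) for Serpina3m, and Paip2b (0.9789), Slc25a32 (0.9722) and Efha2 (0.9681) for Serpini1.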

How the data were processed

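Poly(A) RNA of 9 retinal samples was sequenced in single reads on 2 flow cells. The authors deposited whole-number counts per gene symbol for each mouse and flow cell, made with BaseSpace RNA Express on build mm10 (per the labels), and the paper names normalized counts, whereas the values are unscaled. How strand was treated is not given in the sources used here. Runs were summed by mouse, and reads outside genes or ambiguous (0.303 to 0.471%) were left out. The chi-square divided by its degrees of freedom was 1.63 to 1.80 between runs of a mouse and 16.7 to 73.1 between mice of a group. All groups were fitted together with edgeR 4.0.16 (R 4.3.3; filterByExpr, TMM, robust quasi-likelihood test), and p-values were adjusted by the method of Benjamini and Hochberg over 15196 genes. The SE is the size of the log2 fold change divided by the square root of F. Symbols were joined to GENCODE M21 (98.47% matched, all 63 serpins included). Shared windows and loop sequences came from its transcripts, aligned pairwise. The labels do not say that the mice of a group came from separate litters or cages, and p-values measure the spread between these mice. Named were the 9 genes, other serpins called or among the 5 with most counts, and from each list up to 4 called genes with the smallest adjusted p and the 2 most abundant, and the 3 nearest genes of each member. Of the genes that meet these rules, 1 is not reported here. Members and lists were chosen with earlier results of these data known. On simulated data with 200 changed genes (log2 fold change of 2), 200 were found with 1 false call for vehicle against naïve and 200 with 11 for TD139 against vehicle. The simulation gave every gene the same fixed spread between mice and changed only genes above a minimum mean count. It checks the code and does not measure how many changes or false calls arise at the spread of these mice. The alternatives used DESeq2 1.42.0 and limma 3.58.1.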

Additional observations from a re-analysis of the deposited data

How the results depend on the processing

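The number of serpins called higher for vehicle against naïve, 8 of 20, ranged from 0 to 11 when single mice were left out: 1 without naïve mouse 1, 0 without naïve mouse 2 (where 1 gene of all tested was called higher), 1 without naïve mouse 3, 3 without vehicle mouse 1 and 2 without vehicle mouse 3. It was 5 without the count filter, where Serpina3n had an adjusted p of 0.0561 in edgeR. The number called lower for TD139 against vehicle, 10, ranged from 4 without TD139 mouse 2 and 5 without TD139 mouse 3 to 14 without TD139 mouse 1. Serpini1 alone was called higher in that comparison with DESeq2 and without TD139 mouse 1 (1 gene each), and Serpinb6a alone was called lower than in naïve mice with limma voom and without TD139 mouse 1 (1 gene each). With library size alone, the median of all genes shifted by 0.095 (to 0.093) for vehicle against naïve and by −0.085 (to −0.101) for TD139 against vehicle on the log2 scale, and 890 genes were higher and 261 lower in the first, against 746 and 439.

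For vehicle against naïve and TD139 against vehicle, the log2 fold changes of the 9 genes kept their sign under all alternatives run except Serpini1, at −0.11 for TD139 against vehicle with the length and GC offset. For TD139 against naïve, signs turned for values near 0: with limma voom for Serpina3n (−0.72), Serpina3m (−1.60) and Serpinh1 (−0.14); with the length and GC offset for Serpina3g (0.20), Serpinf1 (0.05) and Serpini1 (−0.20); with 1 flow cell for Serpina3g (0.18, run 1) and Serpinh1 (−0.03, run 2). Without single mice this value ranged from −0.94 to 0.62 for Serpina3n, −1.42 to 0.81 for Serpina3m, −0.35 to 0.32 for Serpina3g and −0.10 to 0.20 for Serpinh1. Under the alternatives 569 log2 fold changes were computed, for the 9 genes and for the summed cluster, which was set against Serpina3n. Of these, 492 kept their direction and side of the threshold, 43 lost the call, 13 gained it and 21 changed sign. The causes were not tested.

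Deviations of same-numbered mice from their group means correlated between −0.26 and 0.25. With 3 mice per group these values cannot decide whether the numbers pair the mice, so fits with and without a replicate block are given. With the replicate block, Serpina3n (adjusted p = 0.0913 in edgeR) and Serpinh1 (adjusted p = 0.0520) were no longer called for vehicle against naïve, 4 serpins were higher for vehicle against naïve and 9 lower for TD139 against vehicle, and Serpina3g was at 0.06 for TD139 against naïve. With the block and the length and GC offset together, Serpina3g was at 0.29, Serpinf1 at 0.05 and Serpini1 at −0.20 for TD139 against naïve, and Serpini1 at −0.11 for TD139 against vehicle. That setting also ended the calls of Serpina3n in both comparisons (adjusted p = 0.0704 each in edgeR) and of Serpinh1 for TD139 against vehicle (−0.50, adjusted p = 0.121).

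Depth limits Serpina3m, Serpina3f, Serpina3g and Serpina3k, at under 50 counts per mouse outside the vehicle group, and intervals of counting error do not cover the spread between mice.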
